A study of Homo sapiens and Mus musculus with 14 samples.

Results

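Accessible chromatin was described at 39 interferon-stimulated genes, a list of named antiviral and signalling genes, out of 20033 protein-coding genes. Each gene was taken with its body and 10 kb on each side, which gave 27 separate windows, since several genes are neighbours. These windows held 32 of the 39537 peaks of SMARCAL1 knockout clone 1, 25 of the 34572 peaks of SMARCAL1 knockout clone 2 and 48 of the 64806 control peaks. The peaks come from ATAC-seq, in which a transposase cuts open DNA, of MDA-MB-436, an established line of human breast adenocarcinoma. Clone 1 was merged from 3 libraries of batch 1, clone 2 from 2 libraries of batch 2 and control from 3 libraries of batch 1, and the labels name no treatment. SMARCAL1, which is disrupted in both clones per the labels, encodes an annealing helicase that acts at stalled replication forks. Each knockout line is a single clone, clone 2 and batch 2 cannot be told apart, and each group is 1 merged list, so no comparison has a replicate check or a p-value. In such a list, a site open in fewer cells and a site less open in every cell cannot be told apart.

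Type I interferon binds a receptor whose kinases, JAK1 and TYK2, phosphorylate STAT proteins, STAT2 among them. Together with IRF9 these form a complex that binds the interferon-stimulated response element (ISRE) in the promoters of the antiviral genes. In unstimulated cells many of these genes are nearly silent, while others are transcribed at a low level. The series concerns the part of SMARCAL1 in innate immune signalling and PD-L1 expression, so accessibility of the interferon targets bears on the first of these.

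A promoter peak here is a peak within 1000 bp of an annotated start. Such a start was found for 32 of the 39 genes in a RefSeq promoter table (GRCh38.p14, the assembly of hg38). For the other 7, namely IFIT2, IFITM2, OAS2, OASL, MX2, TRIM22 and USP18, both annotated gene ends were used. The promoters of 6 genes are shown because, among genes in that table, they hold the highest control scores of those found in both clones and of those found in neither. Each covers 250 bases before to 50 after the start, 5′ to 3′ on the gene's own strand. Capitals mark the ISRE core GAAANNGAA, the gamma-activated site TTCNNNGAA (bound by STAT dimers) and the AP-1 site TGANTCA, each searched on both strands. The GC box GGGCGG was searched too and is not marked.

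ISG20 (an RNA exonuclease), STAT2 and IRF1 (an interferon-induced transcription factor) had a promoter peak in all 3 lists. They lie at chr15:88638766-88639065 on the plus strand, chr12:56360058-56360357 on the minus strand and chr5:132490724-132491023 on the minus strand.
ISG20: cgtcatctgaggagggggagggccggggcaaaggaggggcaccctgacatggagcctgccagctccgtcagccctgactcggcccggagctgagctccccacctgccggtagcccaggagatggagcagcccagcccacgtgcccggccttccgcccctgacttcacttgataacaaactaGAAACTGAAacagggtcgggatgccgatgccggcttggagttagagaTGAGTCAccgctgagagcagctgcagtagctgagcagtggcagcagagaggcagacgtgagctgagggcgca
STAT2: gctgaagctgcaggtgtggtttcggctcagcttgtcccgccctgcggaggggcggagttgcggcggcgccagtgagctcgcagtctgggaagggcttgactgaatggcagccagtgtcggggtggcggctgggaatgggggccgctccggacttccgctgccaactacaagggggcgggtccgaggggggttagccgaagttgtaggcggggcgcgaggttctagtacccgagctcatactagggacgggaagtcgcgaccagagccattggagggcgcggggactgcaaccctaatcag
IRF1: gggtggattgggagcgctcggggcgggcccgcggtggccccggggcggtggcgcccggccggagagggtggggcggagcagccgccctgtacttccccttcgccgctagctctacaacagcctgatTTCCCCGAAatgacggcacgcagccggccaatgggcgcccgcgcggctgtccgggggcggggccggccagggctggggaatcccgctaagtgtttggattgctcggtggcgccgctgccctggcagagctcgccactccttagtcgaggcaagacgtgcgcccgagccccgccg

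IFI44L, PARP14 (an ADP-ribosyltransferase) and IFIT5 (an RNA-binding protein) had a promoter peak in control and in neither clone. They lie at chr1:78620198-78620497, chr3:122680589-122680888 and chr10:89414318-89414617, all on the plus strand.
IFI44L: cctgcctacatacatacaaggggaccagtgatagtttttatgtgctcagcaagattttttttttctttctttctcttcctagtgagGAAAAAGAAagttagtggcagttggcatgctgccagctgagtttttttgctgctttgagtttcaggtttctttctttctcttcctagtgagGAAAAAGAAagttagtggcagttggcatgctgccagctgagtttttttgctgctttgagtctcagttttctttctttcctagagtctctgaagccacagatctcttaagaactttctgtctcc
PARP14: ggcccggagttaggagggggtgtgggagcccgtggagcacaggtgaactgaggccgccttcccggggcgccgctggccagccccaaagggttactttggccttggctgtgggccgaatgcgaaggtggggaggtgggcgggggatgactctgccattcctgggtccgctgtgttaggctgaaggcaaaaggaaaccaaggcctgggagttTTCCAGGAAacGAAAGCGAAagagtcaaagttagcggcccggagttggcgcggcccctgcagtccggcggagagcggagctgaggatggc
IFIT5: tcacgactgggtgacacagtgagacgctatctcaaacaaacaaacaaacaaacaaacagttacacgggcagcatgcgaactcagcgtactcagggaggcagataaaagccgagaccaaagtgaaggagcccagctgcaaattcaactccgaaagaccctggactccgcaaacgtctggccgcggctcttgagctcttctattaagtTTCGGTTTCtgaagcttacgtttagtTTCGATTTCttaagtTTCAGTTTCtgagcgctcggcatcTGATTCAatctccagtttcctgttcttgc

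In the first set the ISRE core was found in ISG20 alone, with its first base 69 bases before the start. It also holds an AP-1 match and 1 GC box. STAT2 held 3 GC boxes, and IRF1 held 5 and a gamma-activated site. All 3 promoters of the second set held ISRE cores, 2 in IFI44L, 1 in PARP14 and 3 in IFIT5, and the IFIT5 matches begin 44, 18 and 3 bases before the start. PARP14 also held 1 GC box and 1 gamma-activated site, and IFIT5 an AP-1 match. The control peaks covered all 300 bases shown for ISG20, STAT2 and IRF1 and 294 of those of PARP14, but 84 of IFI44L and 2 of IFIT5, so the ISRE cores of the last 2 genes lie outside their control peaks.

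Promoter peaks were called at 14 of the 39 genes in clone 1, at 13 in clone 2 and at 22 in control. Over all protein-coding genes the shares were 51.0% in clone 1, 44.4% in clone 2 and 61.4% in control, against 35.9%, 33.3% and 56.4% of the interferon-stimulated genes (exact binomial 95% intervals 21.2 to 52.8, 19.1 to 50.2 and 39.6 to 72.2, for counting error only). All 3 shares of all genes lie within the intervals of the interferon-stimulated genes. A peak was present in all 3 lists at 12 genes (30.8%, 17.0 to 47.6), beside 40.6% of all genes, and in none at 17 (43.6%, 27.8 to 60.4), beside 36.2%. None of the 17 genes without a control promoter peak had one in clone 1 or in clone 2, which allows a share of up to 17.6%. Over all genes without a control promoter peak, 5.52% had one in clone 1 and 1.44% in clone 2.

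**Figure D1:**
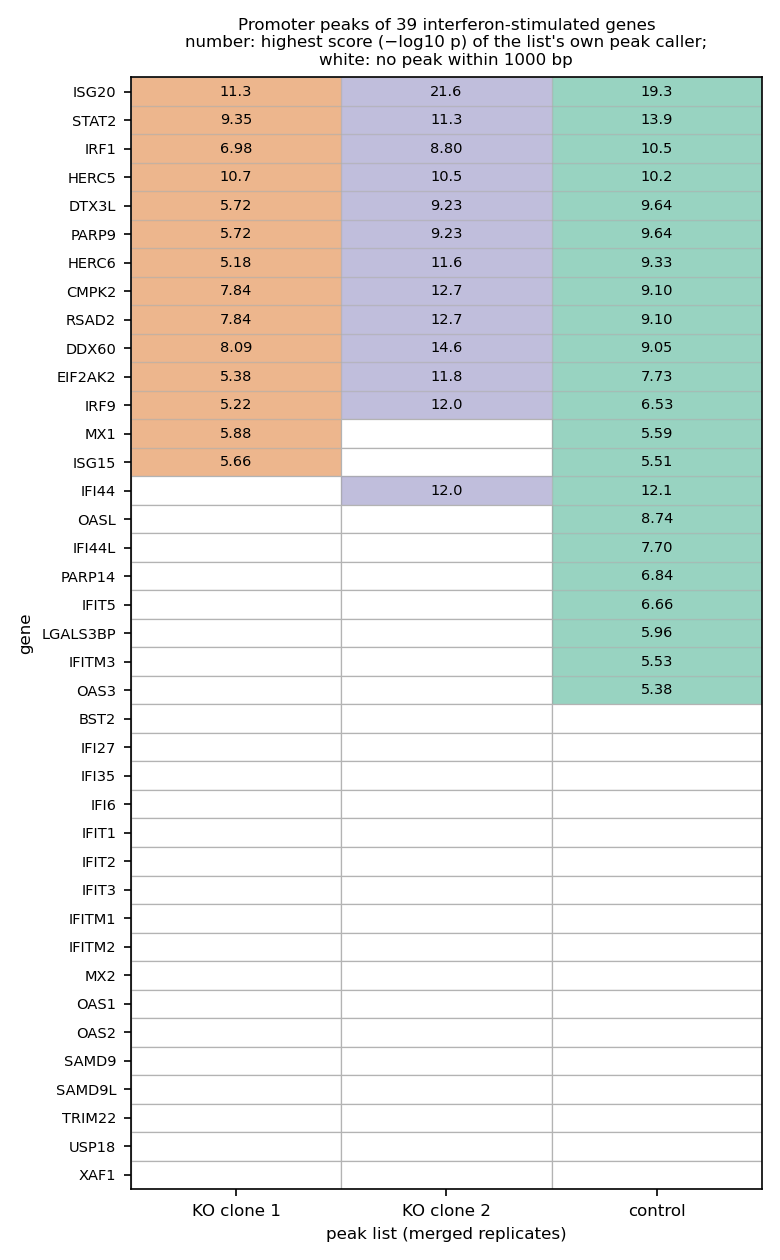
Highest promoter peak score (the authors' value, read as −log10 p) of each of 39 genes in the clone 1, clone 2 and control lists, with white cells where no peak lay within 1000 bp. The upper 12 genes are filled in all lists, ISG15 and MX1 lack clone 2, IFI44 lacks clone 1, the next 7 are filled in control alone and the lower 17 are empty; scores belong to each list's own calls and are not compared across columns.

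Of the 22 genes with a control promoter peak, 8 had none in clone 1 (36.4%, 17.2 to 59.3), 9 had none in clone 2 (40.9%, 20.7 to 63.6) and 7 had none in either (31.8%, 13.9 to 54.9). The same shares over all genes with a control promoter peak were 20.4% for clone 1, 28.6% for clone 2 and 15.0% for both. All 3 lie inside the intervals of the interferon-stimulated genes, so none of these differences exceeds counting error, and genes that share a peak make the intervals too narrow. Within 3000 bp of the starts, IFIT5, LGALS3BP, OAS3 and PARP14 remained without a clone 1 peak and also without a peak in either clone (4 of 22, 18.2%), beside 15.7% of all genes for either clone. With lists of equal length, 4 of 17 (23.5%) had none in clone 2 and 4 of 17 none in either, beside 8.84% of all genes for either clone. Without the genes placed by their ends, 6 of 21 (28.6%) had none in either clone, beside 13.7% of all genes. Both comparisons use the same control list.

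Among the listed genes, the transcription factor genes STAT2, IRF9 and IRF1 had promoter peaks in all lists. Each peak carries a score of the authors in a column without a header, which was read as −log10 p from its values. For STAT2 it was 9.35 in clone 1, 11.3 in clone 2 and 13.9 in control. The peak also lies in the promoter window of APOF, a neighbouring apolipoprotein gene. IRF9, the DNA-binding partner of the STAT proteins, had 5.22 in clone 1, 12 in clone 2 and 6.53 in control, and IRF1 had 6.98, 8.80 and 10.5. All 3 genes thus have a peak near the start in every list, although in clone 2 each of these peaks ends short of the start itself. Scores are not compared between lists, since each list has its own scale: the lowest were 5.00 in clone 1, 5.01 in clone 2 and 5.00 in control, and the medians 6.07, 11 and 6.26.

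Upstream of IRF1 the lists differed. Neither clone had a counterpart of a control peak at chr5:132495655-132497267, which scored 6.62 and was 1613 bp wide. The next site had a peak of 5.60 in clone 1 (chr5:132497494-132498109), none in clone 2 and one of 7.50 in control (chr5:132497662-132497986). Of control peaks scoring like the latter, 55.7% were found in clone 2. The clone 1 peak at this next site begins within 500 bp of the wide control peak, which at that distance counts as found in clone 1.

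EIF2AK2, DDX60 and ISG20, which act on or sense RNA, had promoter peaks in all lists. In the IFIT and OAS clusters only IFIT5 (6.66) and OAS3 (5.38) had one even in control, and no gene had one in a clone. A difference between classes of RNA-directed genes was not tested. EIF2AK2, the kinase PKR that is activated by double-stranded RNA, had promoter scores of 5.38 in clone 1, 11.8 in clone 2 and 7.73 in control. DDX60, a helicase that promotes RNA sensing, had 8.09, 14.6 and 9.05. ISG20 had 11.3, 21.6 and 19.3, the highest control score of the 39 genes. Its peak covers the annotated start at base 88639016 of chromosome 15, inside the gene, which begins at 88635632, and the peak is missed where gene ends stand in for starts.

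Neighbouring pairs of genes shared 1 peak each, so their genes are not independent observations. CMPK2, a mitochondrial nucleotide kinase, and RSAD2, which encodes viperin, start close together in opposite directions. Their common peak scored 7.84 in clone 1, was split into peaks of 12.7 and 9.42 in clone 2, and scored 9.10 in control. Clone 1 had a further peak at an inner start of RSAD2 (chr2:6877383-6878053, score 5.12) that was in neither other list. PARP9, an ADP-ribosyltransferase, and DTX3L, its E3 ubiquitin ligase partner, shared a promoter peak of 5.72 in clone 1, 9.23 in clone 2 and 9.64 in control. A peak inside PARP9 (chr3:122533867-122534302) was in all lists as well, at 5.78, 15 and 15.5. PARP14, which lies farther along the same chromosome, had no promoter peak in either clone and one of 6.84 in control. A peak beyond its end (chr3:122732958-122733467) was in all lists, at 7.84 in clone 1, 11.8 in clone 2 and 6.33 in control.

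HERC5, the ligase that attaches ISG15 to proteins, had promoter scores of 10.7 in clone 1, 10.5 in clone 2 and 10.2 in control. HERC6, its neighbour, had 5.18, 11.6 and 9.33. In clone 2 both promoters were split into 2 peaks, of 132 and 634 bp at HERC5 and of 353 and 177 bp at HERC6. ISG15 itself, a ubiquitin-like modifier, had 5.66 in clone 1, no peak in clone 2, and 2 control peaks of 5.42 and 5.51, the stronger one over the far end of this short gene, 765 bp past the start. USP18, which removes ISG15 from proteins, had no peak in its window in any list. MX1, a dynamin-like GTPase that blocks viral replication, had 5.88 in clone 1, none in clone 2 and 5.59 in control. MX2, its neighbour, had no peak at either end but an inner one (chr21:41366585-41367059) in all lists, with 6.69 in clone 1, 10.7 in clone 2 and 5.54 in control.

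**Figure D2:**
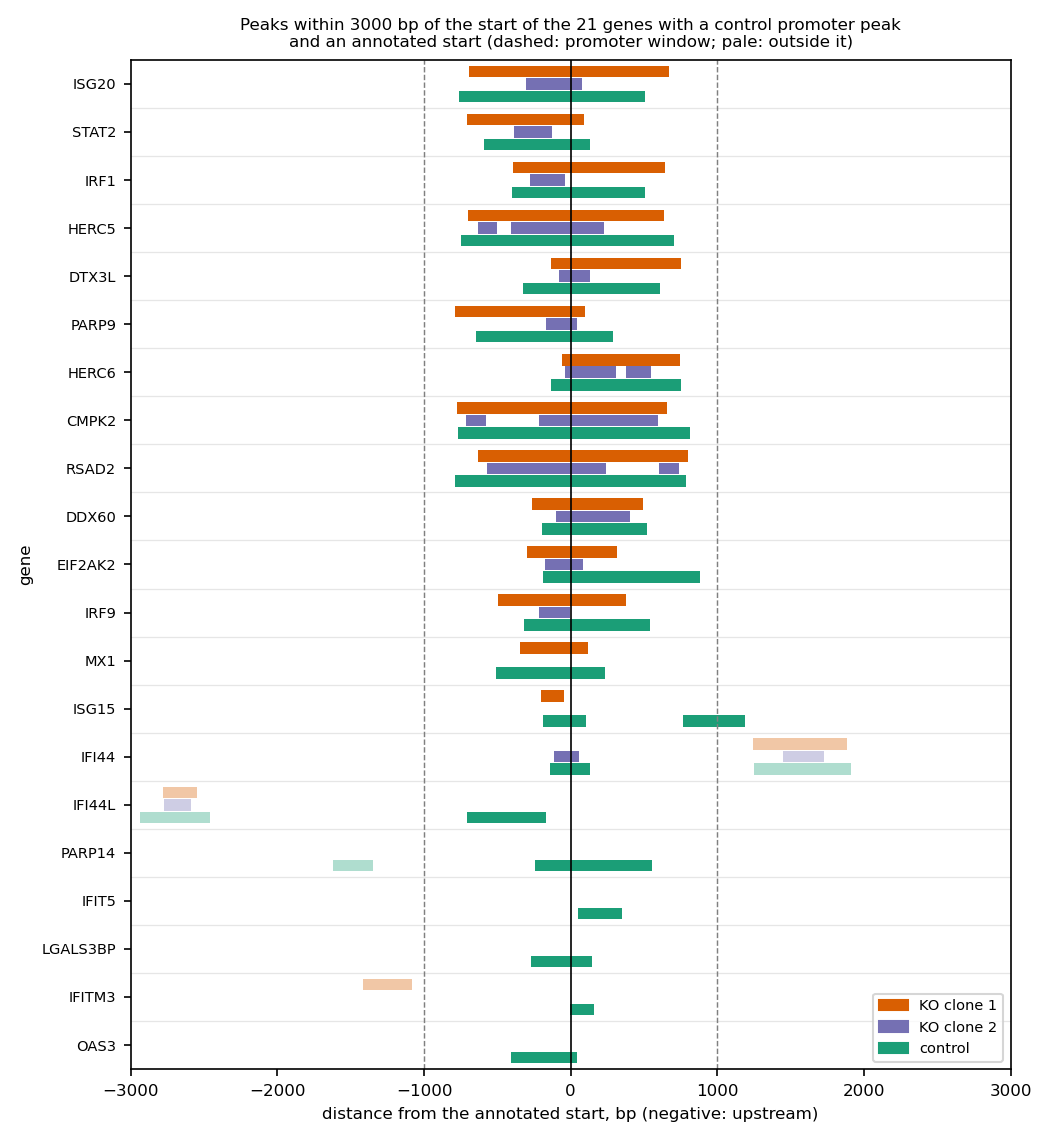
Peaks within 3000 bp of the annotated start of 21 genes with a control promoter peak, as bars for clone 1, clone 2 and control against the distance from the start in bp. The strongest promoter peaks cover the start in 13 of 14 genes in clone 1, 10 of 13 in clone 2 and 18 of 21 in control; clone 2 bars are the narrowest, with a median of 262 bp against 879 bp in clone 1 and 800 bp in control.

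The 7 genes without a promoter peak in either clone were IFI44L, IFIT5, IFITM3, LGALS3BP, OAS3, OASL and PARP14. Their control scores were 7.70, 6.66, 5.53, 5.96, 5.38, 8.74 and 6.84. Their median of 6.66 stands beside 9.48 for the 12 genes found in both clones. Over all genes the medians were 5.87 for those found in neither clone, 11.8 for those found in both and 9.23 for all with a control promoter peak, against 8.90 for the 22 interferon-stimulated genes. IFIT5 lies head to head with LIPA, a lysosomal lipase gene whose promoter window holds the same control peak. OASL, a relative of the OAS genes without synthetase activity, has its control peak 985 bp beyond a gene end. Clone 1 had a peak over it (score 5.51) whose edge is 1114 bp away, just outside the limit, as is a clone 1 peak 1084 bp from the IFITM3 start. LGALS3BP encodes a secreted galectin-binding glycoprotein.

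Weak control peaks were found in the clones less often than strong ones across the genome, and the values of single genes can be read against that. Among control peaks scoring within 10% of the OAS3 peak, 14.6% had an overlapping peak in clone 1 and 13.1% in clone 2. For IFITM3 these shares were 15.2% and 13.6%, for LGALS3BP 23.5% and 22.6%, and for IFIT5 37% and 38.3%. They were 38.5% and 41.4% for PARP14, 53.9% and 59.1% for IFI44L, and 68.8% and 73.8% for OASL. These shares count control peaks anywhere in the genome, most of which were not found for the first 5 genes and were for IFI44L and OASL. By promoter peaks alone the shares were higher in clone 1 for each of these genes, and in clone 2 for all but LGALS3BP and IFI44L. Of all genes with a control promoter score from 5 to below 6, 34.5% had a promoter peak in clone 1 and 19.7% in clone 2. From 6 to below 8, where IFIT5, PARP14 and IFI44L lie, it was 66.0% and 50.3%. From 8 to below 10, where OASL lies, it was 89.8% and 79.6%. MX1 was found in clone 1, as were 15.8% of control peaks anywhere scoring within 10% of its control peak.

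Among genes with a control promoter score from 5 to below 6, 3 of 5 interferon-stimulated genes and 55.9% of all genes had a promoter peak in neither clone. From 6 to below 8 it was 3 of 5 beside 22.9%, and from 8 to below 10 it was 1 of 7, OASL, beside 5.44%. At 10 or more, ISG20, STAT2, IFI44, IRF1 and HERC5 each had a peak in at least 1 clone. These score ranges were chosen after seeing the data. With so few genes in each range, the shares are descriptions only.

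**Figure D3:**
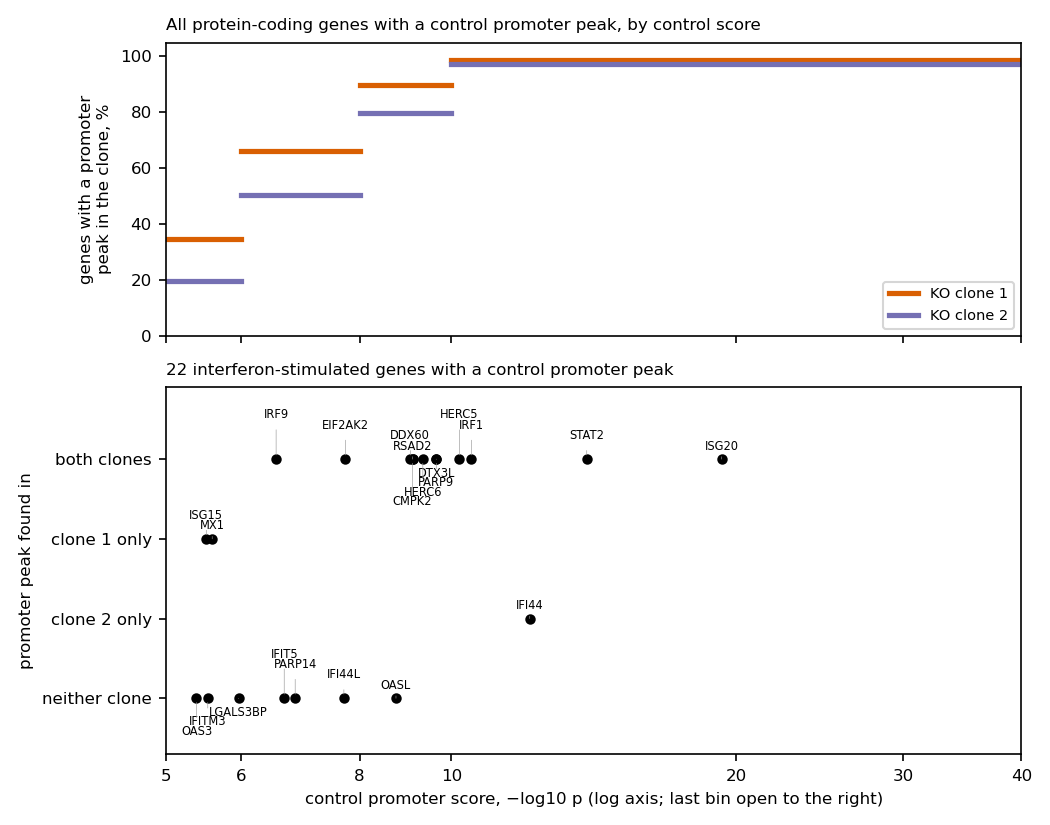
Upper panel, share of all protein-coding genes with a control promoter peak that had a promoter peak in clone 1 and in clone 2, by control score (−log10 p, log axis). Lower panel, the 22 interferon-stimulated genes at their control score and by the clones in which a promoter peak was found; the 7 genes found in neither clone lie between 5.38 and 8.74, and IFI44 at 12.1 is the strongest gene that a clone lacked.

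IFI44 stood apart in clone 1. Its promoter peak was absent there, while clone 2 scored 12 and control 12.1. Of the 3639 control peaks scoring within 10% of that value, 93.2% were found in clone 1 and 95.5% in clone 2. Of all genes with a control promoter score of 10 or more, 98.7% had a promoter peak in clone 1. The pattern is not limited to IFI44: GATA3, a breast marker gene, scored 12.6 in control and 10.3 in clone 2 and had none in clone 1. IFI44 and its neighbour IFI44L encode related proteins induced by interferon. A peak inside IFI44 (chr1:78651080-78651743), whose centre is 1580 bp past the start, was in all lists with 8.43 in clone 1, 12.9 in clone 2 and 12 in control. Another, upstream of IFI44L (chr1:78617512-78617985), was also in all lists with 8.28, 7.97 and 8.52. The missing promoter peaks of both genes thus have neighbouring sites that every list holds.

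Few peaks lay in the IFIT and OAS clusters, while the short IFITM cluster held more for its length in clone 1. The IFIT cluster, which encodes proteins that bind viral RNA, spans 139 kb on chromosome 10 with its flanks (IFIT2, IFIT3, IFIT1 and IFIT5 in order) and held no peak in clone 1 or clone 2 and 1 in control, that of IFIT5. The OAS cluster on chromosome 12 encodes the synthetases that activate RNase L and spans 125 kb with OAS1, OAS3 and OAS2. It likewise held 0 peaks in clone 1, 0 in clone 2 and 1 in control, that of OAS3, whose peak (chr12:112938066-112938517) covers the start. In the IFITM cluster on chromosome 11, which encodes membrane proteins that hinder viral entry, clone 1 had 2 peaks, clone 2 none and control 1, which is 6.05 per 100 kb in clone 1 and 3.03 in control. In control the IFIT cluster had 0.720 and the OAS cluster 0.802 per 100 kb. The control peak lay at the IFITM3 start (chr11:320701-320864). The clone 1 peaks were elsewhere, between IFITM2 and IFITM1 (chr11:310676-311401, score 6.73) and upstream of IFITM3 (chr11:321944-322279, score 6.60), and overlapped no peak of another list. IFITM genes are closely similar copies, and how reads shared between them were placed is not given in the sources used here. Over all 39 windows there were 2.07, 1.62 and 3.11 peaks per 100 kb in clone 1, clone 2 and control, against 1.65, 1.45 and 2.61 in the windows of all protein-coding genes.

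**Figure D4:**
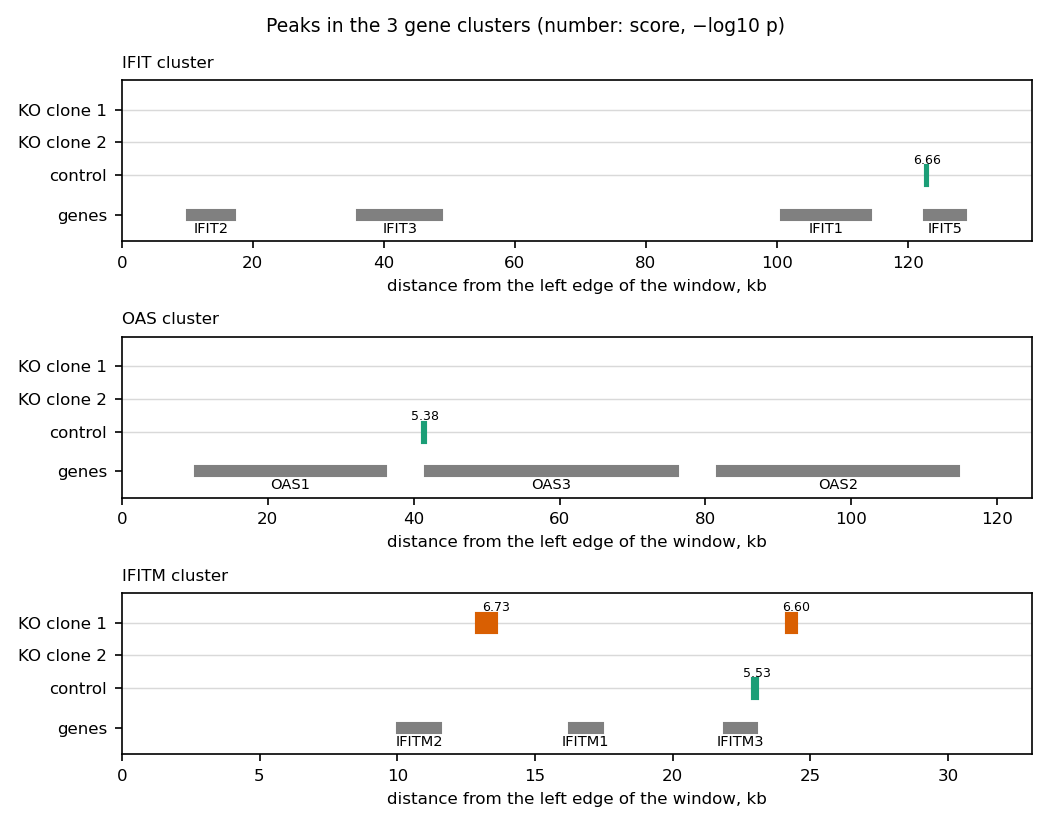
Peaks of clone 1, clone 2 and control in the IFIT, OAS and IFITM clusters, by distance in kb from the left edge of each window, with gene bodies in grey and scores (−log10 p) above the peaks. The IFIT and OAS panels hold 1 control peak each and no clone peak, and the IFITM panel holds 2 clone 1 peaks and 1 control peak at different places.

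No peak was present in any list in the windows of 8 genes: IFIT2, IFIT3, OAS2, USP18, XAF1, BST2, SAMD9 and SAMD9L. BST2 encodes tetherin, which holds budding virions at the cell surface, XAF1 a pro-apoptotic protein, and SAMD9 and SAMD9L factors that restrict poxviruses. A further 6 genes had window peaks in control and in neither clone: IFI27, IFIT1, IFIT5, OAS1, OAS3 and LGALS3BP. For IFIT1 and OAS1 that peak is the promoter peak of the neighbouring IFIT5 and OAS3. IFI27, which encodes a small mitochondrial protein, had 1 control peak, inside IFI27L1 and 7.07 in score. The only peak near IFI6 was a clone 1 peak of 5.01, close to the lowest score of the list. IFI35 had peaks only in its flanks, with 2 in clone 1 at the RPL27 promoter, none in clone 2, and 3 in control at the promoters of RPL27 and VAT1 and inside VAT1. The window of TRIM22, an antiviral ubiquitin ligase, held the TRIM5 promoter, open in all lists at 9.10, 19.3 and 19.0.

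Counted once each, 24 of the 48 control peaks in the windows had no overlapping clone 1 peak (50%, 35.2 to 64.8), 28 had no clone 2 peak (58.3%, 43.2 to 72.4) and 21 had neither (43.8%, 29.5 to 58.8). Over all control peaks these shares were 57.9%, 57.1% and 46.7%. In the other direction 7 of 32 clone 1 peaks (21.9%, 9.28 to 40) and 2 of 25 clone 2 peaks (8%, 0.984 to 26) had no control peak, beside 30.7% of all clone 1 peaks and 11.1% of all clone 2 peaks. All 5 background shares lie within the intervals. With lists of equal length, 11 of 29 clone 1 peaks (37.9%) and 5 of 25 clone 2 peaks (20%) had no control peak, and 33.3% of control peaks had no clone 1 peak, so for clone 1 the order of the 2 directions turned. When a clone peak had to cover 50% of the control peak, 87.5% had no clone 2 peak, where the median width of a window peak was 207 bp against 444 bp in control. Among control peaks scoring above the list median the share absent from both clones was 26.9%, and with lists cut to equal length it was 25.9%. Shares over all peaks under these changed settings are not given here. The values therefore cannot be set beside the full-list shares, and the turned order cannot be read as a trait of these windows.

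Both clones held an inner ISG20 site that no control peak overlapped. Clone 1 had a peak at chr15:88648542-88648966 with a score of 5.74, and clone 2 had one within it at chr15:88648854-88648963 with 10.4. A control peak of 5.52 lay next to them at chr15:88649222-88649543, and within 500 bp the site counts as present in control. At DDX60 no clone 1 peak lay over a pair of inner sites that had scores of 7.01 and 11.6 in clone 2 and of 5.06 and 5.94 in control (chr4:168218784-168218933 and chr4:168304924-168305352). Of all control peaks scoring within 10% of each, 12.7% and 23.3% were found in clone 1. The other clone 1 peaks without a control peak, beside those at ISG20, RSAD2, IFI6 and the IFITM genes, were inside OASL (5.72) and EIF2AK2 (5.36). The other such clone 2 peak lay between HERC6 and HERC5 (8.06).

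Promoter letters were counted in the genes with a RefSeq promoter. The ISRE core was in the promoters of 24 of 32 interferon-stimulated genes (75%) and of 9.22% of 15841 genes with a promoter sequence. It was in 17 of 21 with a control promoter peak, beside 8.68% of all such genes, and in 7 of 11 without, beside 10.2%. It was in 8 of 12 with a peak in all lists, beside 8.96%, and in 6 of 6 with none in either clone, beside 8.05%. A link between the ISRE core and the absence of clone peaks was not tested. The GC box was in 11 of the 12 genes with a peak in all lists (91.7%, beside 79.9% of all such genes) and in 3 of the 6 with none in either clone (50%, beside 72.8%). Genes without a control peak held it in 2 of 11 promoters, beside 39.4%. The gamma-activated site was in 10 of 32 (31.2%, beside 8.98%), and the AP-1 site in 4 of 32 (12.5%, beside 8.04%). Counted by single promoters, which can be several per gene, the shares of all 22198 with each motif were 7.10% for the ISRE core, 6.79% for the gamma-activated site, 6.15% for AP-1 and 56.3% for the GC box. Median GC content was 60% in the genes with a control promoter peak and 47.7% in those without, against 65.0% and 55.7% over all genes. IFI44, IFI44L and SAMD9L had no CpG dinucleotide in their promoters. Matches are descriptions of letters, not of bound factors, and motif matches may overlap one another.

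The receptors, kinases and regulators above these genes were examined as a list of 25. Promoter peaks were present at 17 in clone 1, at 13 in clone 2 and at 20 in control, beside 51.0%, 44.4% and 61.4% of all genes. Type I interferon signalling genes were open in all lists at, among others, IFNAR1 (8.88, 12.5 and 14.8), IFNAR2 (7.12, 11.4 and 12.1) and JAK1 (9.64, 11.8 and 14.3), with scores in the order clone 1, clone 2 and control. IFNAR2 and IRF7 were placed by both gene ends, so a peak counted there may lie at either end. TYK2, the other receptor kinase, had no peak in clone 1, 8.27 in clone 2 and 6.84 in control. The feedback inhibitors SOCS1 and SOCS3 were open in all lists. IRF7, a factor that amplifies interferon production, and PIAS1 and PIAS4, inhibitors of STAT proteins, were 3 of 20 with a control peak and none in either clone (15%, the same as over all genes). Their control scores were 6.13, 5.15 and 8.02.

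In a second list of 49 further interferon-induced genes, 27 had a promoter peak in clone 1, 23 in clone 2 and 30 in control. Over all genes the shares were 51.0%, 44.4% and 61.4%. The sensors IFIH1 (8.64, 12.3 and 13.6) and RIGI (8.99, 10.6 and 14.0) were open in clone 1, clone 2 and control, as were TRIM21, PLSCR1 and PNPT1. ADAR, DHX58, SHFL and SLFN11 had control scores of 6.91, 5.84, 6.36 and 5.49 and no promoter peak in either clone. That makes 4 of 30 (13.3%), beside 15.0% of all genes. No gene of either list had gained a promoter peak in both clones. In clone 1 alone, IRF3 (6.35), LGALS9 (5.27) and ZBP1 (5.05) had one without a control counterpart. IRF3, ZBP1 and DHX58 were placed by both gene ends, so their peaks may lie away from the start.

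The labelled cell type was set beside marker promoters. Of 15 epithelial and breast genes, 5 had a promoter peak in clone 1, 5 in clone 2 and 8 in control, beside 51.0%, 44.4% and 61.4% of all genes. VIM, EGFR and EPCAM had one in all lists. AXL had one in clone 1 and control, and FOXC1 and GATA3 had one in clone 2 and control. GATA3 scored 12.6 in control and 10.3 in clone 2. KRT18 and CD44 had one in control alone, and CDH1 in clone 1 alone. KRT5, KRT8, KRT14, KRT19, ESR1 and TP63 had none in any list. Among leukocyte genes PTPRC, CD3E, MS4A1 and CD79A had none in any list, while CD14 had one in all lists and SPI1 in clone 2 and control. EPCAM, CDH1, KRT14, KRT18, KRT19, CD3E, MS4A1 and SPI1 were placed by both gene ends. Other listed markers gave 1 of 4 endothelial, 2 of 5 melanocyte and 1 of 5 fibroblast genes in each clone, against 1, 2 and 2 in control. Their part in the results was not tested.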

How the data were processed

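ATAC-seq libraries of MDA-MB-436 cells were grouped by their titles, and 6 libraries of the mouse line B16F10 were not analysed here. The tools HISAT2, MACS2 and ChIPseeker and the build hg38 are named per the submitters' processing notes, without versions or settings. The authors deposited 1 list per group, with replicates merged, that holds positions and a score. The deposited score has no header and is read as −log10 p, and no value lies below 5. Of the 60 most frequent scores, 11 in clone 1, 20 in clone 2 and 13 in control fall on Poisson tail steps. These form 2, 3 and 3 series, each with its own fitted constant background. The other frequent scores fall on none, and how many would match by accident was not computed, so the reading remains uncertain. Read totals were not used here, so depth is unknown.

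Positions were recounted from 1 and intersected with RefSeq genes of GRCh38.p14 on the primary chromosomes (Python 3.11.15, pandas 2.3.3, SciPy 1.17.1). Promoter peaks lie within 1000 bp of an annotated start, taken for 15841 of 20033 genes, or of either gene end elsewhere. Peaks of different lists matched from an overlap of 1 bp. Overlap code was checked on simulated data. Intervals are exact binomial (95%), and the limit of a count of 0 uses 3 counts. Window size, overlap, list length, score and the definition of the start were varied. All 39 genes are named, and sequences were taken by the highest control scores. The members and lists were chosen with earlier results of these data known. IFI44 in clone 1, the inner ISG20 and DDX60 sites, the IRF1 upstream peaks and single genes of the signalling and marker lists with peaks in the clones were picked after their values were seen. Some genes of the lists are not reported here by name.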

Additional observations from a re-analysis of the deposited data

How the results depend on the processing

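Of 66 recomputed values, 58 stayed within 1.5 times the count or within the 95% interval of the share. Among control peaks in the windows, the share absent in clone 1 moved to 33.3% with lists of equal length (34572 peaks each) and to 30.8% with peaks scoring above the list median, against 50% over all of them. The share absent in clone 2 moved to 37.0% and 34.6% under the same settings, and to 87.5% when 50% of the control peak had to be overlapped. The share absent in both became 25.9% and 26.9%. Clone 2 peaks without a control peak became 0% of 13 above the list median. Equal length raised clone peaks without a control peak to 37.9% in clone 1, against 21.9% with full lists, and to 20% in clone 2, against 8%. The cause was not tested, although both settings remove weak control peaks by construction. Shares over all peaks under these settings are not given here. Shares of genes without a promoter peak in either clone ranged from 18.2% to 38.1%. The setting with either gene end for every gene, added after seeing the data, gave 38.1% (8 of 21, ISG20 among them), beside 15.9% of all genes. Lists of equal length gave 4 of 17 genes (23.5%) beside 8.84%. The intervals of these shares are wide, so a value inside one can still differ much from it. Unknown depth limits every comparison, and narrow peaks those with clone 2.

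No paired analysis was possible because the replicates of each group had been merged into 1 list before deposit, and leaving out single replicates was not possible for the same reason.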
